A study of Mus musculus with 8 samples.

Results

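The genes described here are those of cholesterol and fatty acid synthesis: 39 genes, listed by symbol and found by NCBI Gene ID among the 38920 rows of each table. They fall into 6 regulators, 18 genes of sterol synthesis and transport, and 15 genes of fatty acid and glycerolipid synthesis. All 39 were found and all 39 passed the filter on low values, so none was dropped. The series measured total RNA, freed of ribosomal RNA, from gastric epithelial cells sorted from stomachs of C57BL/6 mice. The 4 libraries of the diet group, HFD, were numbered 22, 23, 26 and 27 and came from mice on a high fat diet. The 4 control libraries, ND, were numbered 15-17-18, 16, 19 and 20. The labels name no allele or transgene in either group. The sources used here do not give age, sex, composition of the diets or length of feeding. The title ND 15-17-18 holds 3 numbers and the labels do not say whether it is a pool. Nor do they say that each library came from 1 mouse, so p-values measure the spread between these libraries.

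Cells make sterols and fatty acids from the same precursor, acetyl-CoA. Both routes are driven by sterol regulatory element binding proteins (SREBPs), membrane-bound transcription factors that the escort protein SCAP carries out of the endoplasmic reticulum when sterols are scarce and that INSIG proteins hold there when sterols are plentiful. SREBP-2, from Srebf2, mainly drives cholesterol synthesis. SREBP-1, from Srebf1, mainly drives fatty acid synthesis, in which it is joined in liver by the carbohydrate-responsive factor ChREBP, from Mlxipl.

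Levels are log2(value + 1), where value is the antilog of the authors' deposited log2 value after median-ratio scaling, which divides each library by its median ratio to the row means. The scaling matters here. As deposited, the tables share a common total, and the 20 rows with the highest mean held 83.4% of that total in ND 15-17-18 and 58.5% in ND 19, while it was 27.6% to 43.05% in the HFD libraries, 26.1% in ND 16 and 40.6% in ND 20. The scale factor was accordingly 0.176 for ND 15-17-18 and 0.677 for ND 19, and 1.06 to 1.22 in HFD, 1.37 in ND 16 and 1 in ND 20. As deposited, the median tested row was 0.90 higher in HFD; after scaling it was 0.12 higher. All differences below are HFD minus ND. The files do not state depth, and whole reads could not be recovered from the values. In bulk cells, fewer cells of a type and less RNA per cell cannot be told apart.

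The lipid synthesis genes were called neither higher nor lower in HFD. Of the 39 members, 0 had a limma adjusted p under 0.05, where 0.0109% of the 27401 tested rows did. As deposited the count was also 0, where 0.0584% of rows were called. The median difference over the 39 members was 0.02, against 0.12 over all tested rows, with 21 members positive and 18 negative. At an unadjusted p under 0.05, 5 members were lower in HFD (Srebf2, Acacb, Fasn, Scd1 and Scd2), or 12.8% of the 39, where 4.09% of all tested rows were lower by that rule. Among the 13527 rows above the mean level of the lowest member, 7.36% were lower and 8.49% higher, and the median difference was 0.05. At the same threshold 1 member was higher (Fads1), or 2.56%, where 6.43% of all rows were. These members are named from an unadjusted threshold, and all have a limma adjusted p of at least 0.248. Groups did not overlap for Fads1, higher in all 4 HFD libraries, and for Srebf2, lower in all 4. Each is 1 of 39 (2.56%), where 4.72% of all tested rows lay wholly above and 3.12% wholly below.

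**Figure D1:**
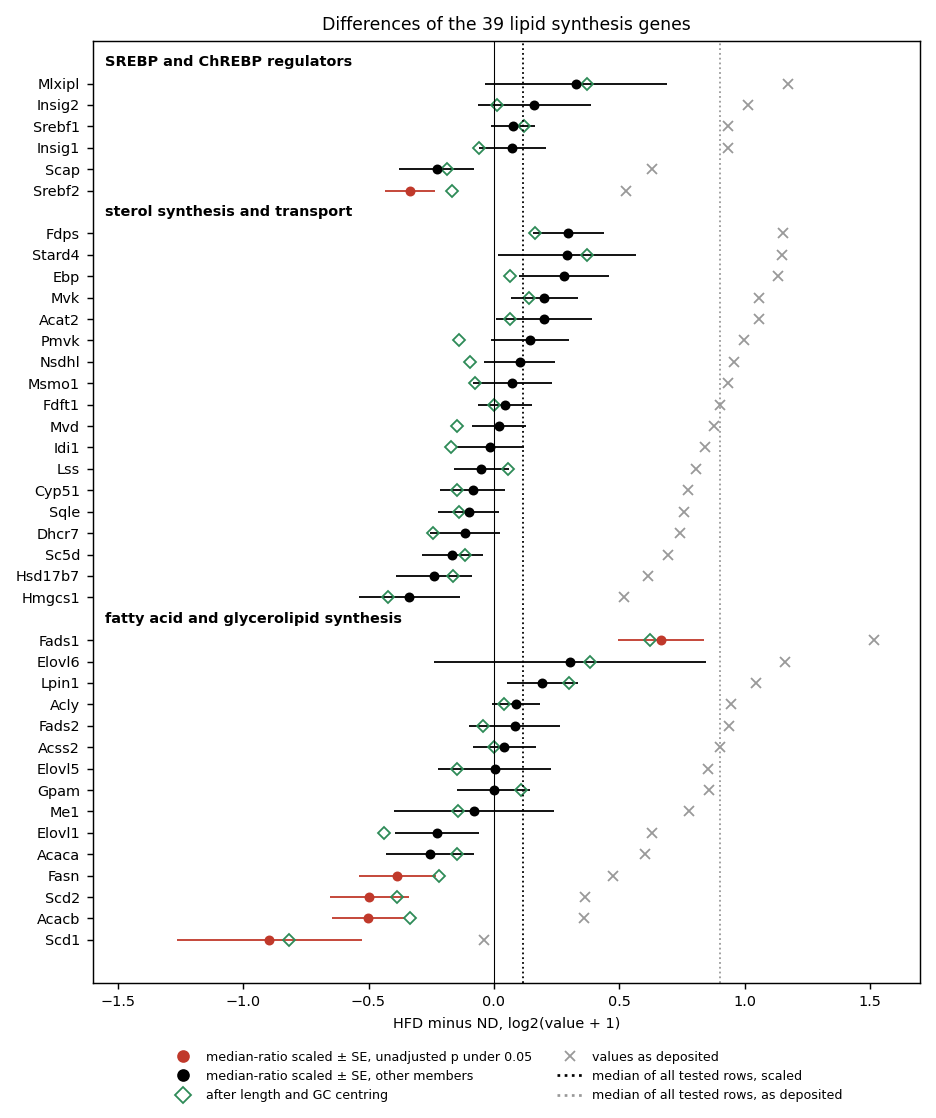
Difference between HFD and ND (horizontal axis, log2(value + 1)) for each of the 39 genes, by role. Circles with bars are the scaled difference ± SE, red where the unadjusted p is under 0.05; open diamonds are the difference after centring by transcript length and GC; crosses are the difference on the deposited values. The 5 red circles left of 0 are Srebf2, Fasn, Scd2, Acacb and Scd1, the 1 to the right is Fads1, and the crosses lie around 0.90, the deposited median of all rows.

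After median-ratio scaling, the precision was enough to bound most of these genes. The 95% interval of the difference lay within 1 log2 unit of 0 for 35 of the 39 members and within 0.5 for 17. The exceptions at 1 unit were Mlxipl, Elovl6, Scd1 and Fads1. On the deposited values the SE of Srebf1 was 0.74, against 0.09 after scaling, so these bounds rest on the scaling. By role, the median difference was 0.07 for the regulators, 0.03 for sterol synthesis and transport and 0.00 for fatty acid and glycerolipid synthesis. Of the 18 sterol genes, 10 were positive and 8 negative and 0 had an unadjusted p under 0.05 in either direction. Of the 15 fatty acid genes, 7 were positive and 8 negative, with 4 lower and 1 higher at that threshold. As deposited, 38 of the 39 differences were positive, with a median of 0.88. Scd1, at -0.04, was the exception. On that scale 1 member, Fads1, had an unadjusted p under 0.05 and was higher, where 9.25% of rows were, and 0 members were lower, where 0.358% of rows were.

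Promoter letters of the members were set beside those of all genes with a listed promoter, which were not matched for expression or GC content. The members were chosen as genes of routes driven by SREBPs, so these letters are not independent of the choice. The RefSeq promoter table of GRCm38.p6 holds 32 of the 39 members (Fdps, Fads1, Scd1, Scd2, Sqle, Fdft1 and Stard4 had no entry), and the 250 bases before each listed start were searched on both strands. The CCAAT box (CCAAT), bound by NF-Y, a factor that works beside SREBPs at sterol-regulated promoters, was present in 25 of the 32, or 78.1%, against 37.5% of the 27025 genes in the table. The GC box (GGGCGG), the letters of an Sp1 site, was present in 25 of 32 as well, against 35.4% of genes. The E-box CACGTG was present in 7 of 32, or 21.9%, against 6.86%. The sterol regulatory element TCACNCCAC was present in Hmgcs1 and Mlxipl, or 6.25%, against 1.22%. A match is a match of letters and not a site shown to be bound. The 180 bases before the start are printed for Srebf2, Fasn and Acacb, which were lower at the unadjusted threshold, for Hmgcs1, which carries the sterol element, and for Msmo1, with 3 CCAAT boxes. Capitals mark CCAAT on either strand (ATTGG when reversed) and TCACNCCAC.
Srebf2, chr15:82147089-82147268, plus strand: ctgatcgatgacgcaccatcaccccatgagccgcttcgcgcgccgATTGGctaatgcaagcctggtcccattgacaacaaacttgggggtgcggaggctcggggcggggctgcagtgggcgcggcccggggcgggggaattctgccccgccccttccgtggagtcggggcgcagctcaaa
Hmgcs1, chr13:119690171-119690350, plus strand: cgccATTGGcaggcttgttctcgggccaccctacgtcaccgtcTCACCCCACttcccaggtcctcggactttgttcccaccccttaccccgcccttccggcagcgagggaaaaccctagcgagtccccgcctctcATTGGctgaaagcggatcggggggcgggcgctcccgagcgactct
Msmo1, chr8:64733579-64733758, minus strand: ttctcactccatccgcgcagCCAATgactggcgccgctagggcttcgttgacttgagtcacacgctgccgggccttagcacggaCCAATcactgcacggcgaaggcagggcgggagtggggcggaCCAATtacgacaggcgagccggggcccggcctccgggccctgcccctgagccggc
Fasn, chr11:120824548-120824727, minus strand: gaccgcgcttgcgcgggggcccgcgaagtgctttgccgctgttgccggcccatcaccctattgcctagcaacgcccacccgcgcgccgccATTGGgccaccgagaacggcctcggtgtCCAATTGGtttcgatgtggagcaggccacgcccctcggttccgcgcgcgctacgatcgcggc
Acacb, chr5:114165338-114165517, plus strand: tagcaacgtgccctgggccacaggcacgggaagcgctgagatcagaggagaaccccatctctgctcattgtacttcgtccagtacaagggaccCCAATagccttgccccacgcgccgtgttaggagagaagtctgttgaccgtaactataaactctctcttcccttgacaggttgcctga
In the Fasn window 2 of the 3 matches overlap, as CCAATTGG reads as a box on both strands. The starts that RefSeq lists for the Fasn and Acacb windows lie inside the spans of these genes given below, so both windows are sequence within the gene's span. The sterol element of Hmgcs1, TCACCCCAC, is the only match to TCACNCCAC in the 5 printed windows.

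Among the regulators, Srebf2 (chromosome 15, 82147269 to 82205379, mm10) stood at 13.07, 13.16, 13.20 and 13.11 in HFD 22, 23, 26 and 27, against 13.68, 13.40, 13.44 and 13.36 in ND 15-17-18, 16, 19 and 20. All 4 HFD libraries lay below all 4 ND libraries, and ND 15-17-18 was the highest. The means were 13.14 ± 0.06 in HFD and 13.47 ± 0.14 in ND (SD, n = 4 each). The difference was -0.33 ± 0.10 (SE; limma adjusted p = 0.30). It was not called. On the deposited values its sign was the opposite, at 0.53, and it missed the unadjusted threshold after quantile normalization (-0.20) and on a common total without the 20 highest rows (-0.08). Leaving out any 1 library gave -0.26 to -0.37, with an unadjusted p under 0.05 each time. The row of Mir33, whose precursor lies in an intron of Srebf2 in the mouse, was listed at 0 in all 8 libraries.

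Srebf1 (chromosome 11, 60199084 to 60224186) was the steadiest of the 39. It stood at 11.90, 11.91, 11.89 and 11.82 in HFD 22, 23, 26 and 27, against 11.80, 11.91, 11.80 and 11.71 in ND 15-17-18, 16, 19 and 20. The groups overlapped, the range over all 8 libraries was 0.20, and the difference was 0.08 with a 95% interval of -0.12 to 0.27. Its row sums the transcripts for SREBP-1a and SREBP-1c, which the tables do not separate.

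The escort and anchor genes did not separate the groups. Scap, the escort, stood at 12.01, 12.02, 11.92 and 11.97 in HFD, against 12.27, 12.41, 11.75 and 12.41 in ND 15-17-18, 16, 19 and 20. ND 19 lay below every HFD library and the other 3 ND libraries above them, and the difference was -0.23 ± 0.15 (SE; limma adjusted p = 0.61), or -0.38 without ND 19, where the unadjusted p passed 0.05. Insig1, itself a textbook SREBP target, stood at 11.29, 10.74, 11.16 and 11.08 in HFD 22, 23, 26 and 27, against 10.83, 11.03, 11.09 and 11.03 in the ND libraries. HFD held both the highest and the lowest Insig1 value, and the difference was 0.07, with a 95% interval of -0.23 to 0.37. Insig2, the paralog less dependent on SREBP, stood at 9.19, 9.30, 9.41 and 9.42 in HFD, against 8.46, 9.57, 9.18 and 9.46 in ND. ND 15-17-18 alone was low, and the difference was 0.16 ± 0.23 (SE). Mlxipl was near the bottom of the range of members and variable, at 6.53, 7.19, 6.13 and 6.42 in HFD 22, 23, 26 and 27, against 7.01, 5.73, 6.28 and 5.95 in ND. Its groups overlapped, and its difference of 0.33 ± 0.36 (SE) became 0.12 without HFD 23 and 0.58 without ND 15-17-18.

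**Figure D2:**
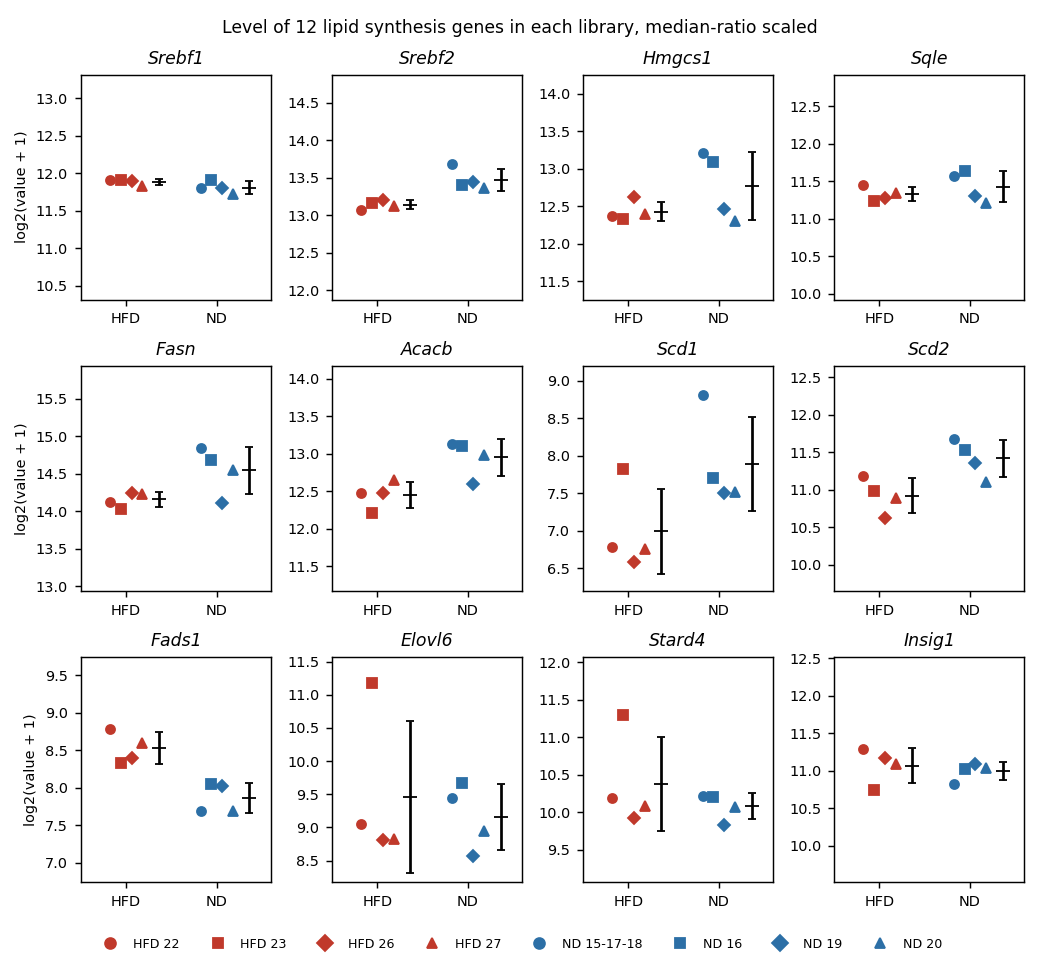
Level of 12 of the genes in each library (vertical axis, log2(value + 1) after median-ratio scaling; axes cover at least 3 units but differ in position), HFD left of ND, with the mean and SD of the 4 libraries in black. Srebf1 is level across all 8 libraries, Srebf2 and Fads1 do not overlap between groups, and HFD 23 stands alone for Elovl6 and Stard4.

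In the sterol pathway the entry enzymes came first. Hmgcs1, the HMG-CoA synthase of the cytosol (chromosome 13, 119690351 to 119708260), stood at 12.37, 12.32, 12.62 and 12.39 in HFD 22, 23, 26 and 27, against 13.21, 13.10, 12.46 and 12.31 in ND 15-17-18, 16, 19 and 20. Only ND 15-17-18 and ND 16 lay above the HFD libraries, and ND 19 and 20 lay among or just below them. The difference was -0.34 ± 0.20 (SE; limma adjusted p = 0.57), or -0.19 without ND 15-17-18 and -0.49 without ND 20, where it passed the unadjusted threshold. Acat2, which condenses acetyl-CoA, differed by 0.20 ± 0.19, Mvk, mevalonate kinase, by 0.20 ± 0.13, Pmvk, phosphomevalonate kinase, by 0.14 ± 0.16 and Mvd, the decarboxylase that follows, by 0.02 ± 0.11 (SE). In these 4 genes the groups overlapped. Acat2 has a close relative, Acat3, with which it could share reads.

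Of the isoprenoid steps, none passed the unadjusted threshold. Idi1, the isomerase of isopentenyl diphosphate, stood at 9.43, 9.46, 9.42 and 9.49 in HFD, against 9.48, 9.77, 9.24 and 9.35 in ND. The 4 HFD values spanned 0.07 and lay within the span of the ND values, and the difference was -0.01 with a 95% interval of -0.32 to 0.29. Fdps, farnesyl diphosphate synthase, stood at 9.81, 9.59, 9.72 and 9.47 in HFD 22, 23, 26 and 27, against 9.56, 9.22, 9.13 and 9.50 in ND 15-17-18, 16, 19 and 20. It had the smallest p of the sterol genes, though HFD 27 lay below 2 ND libraries, and a difference of 0.30 ± 0.14 (SE; limma adjusted p = 0.50). Its exons share 1124 bases with the predicted gene Gm43738 on the same strand, so its reads could be split. Fdft1, squalene synthase, differed by 0.04 ± 0.11 (SE) and overlaps Ctsb, the gene of the protease cathepsin B, over 774 bases on the opposite strand.

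For the steps from squalene to lanosterol and on to cholesterol, no gene passed the unadjusted threshold. Sqle, squalene epoxidase and a rate-controlling step, stood at 11.45, 11.24, 11.28 and 11.35 in HFD, against 11.57, 11.64, 11.30 and 11.21 in ND 15-17-18, 16, 19 and 20. Its groups overlapped, with a difference of -0.10 and a 95% interval of -0.37 to 0.17. Cyp51, lanosterol demethylase, stood at 10.94, 10.77, 11.07 and 10.85 in HFD, against 11.06, 11.22, 10.96 and 10.71 in ND. It too overlapped, at -0.09 ± 0.13 (SE). Among the other enzymes of this stretch, Lss, lanosterol synthase, differed by -0.05, Msmo1, the sterol methyl oxidase, by 0.07, Nsdhl, the sterol dehydrogenase, by 0.10, Hsd17b7, the keto-reductase, by -0.24, Ebp, the sterol isomerase, by 0.28, Sc5d, the sterol desaturase, by -0.17 and Dhcr7, which makes cholesterol in its last step, by -0.11. In each of these 7 genes the groups overlapped. The 95% interval was -0.12 to 0.68 for Ebp, -0.58 to 0.10 for Hsd17b7 and -0.28 to 0.43 for Msmo1. Constancy was neither tested nor shown for any of these 7 genes. Exons of several members overlap genes on the opposite strand, such as Cyp51 with Akap9 over 166 bases, Srebf1 with Rai1 over 109 and Acss2 with Gss over 395, and whether counting used strand is not stated.

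Stard4, a carrier of sterol between membranes (chromosome 18, 33199138 to 33213862), was set by 1 library. It stood at 10.18, 11.30, 9.92 and 10.08 in HFD 22, 23, 26 and 27, against 10.22, 10.20, 9.83 and 10.07 in ND. HFD 23 lay more than 1 log2 unit above every other library, whose values ran together. The difference was 0.29 ± 0.27 (SE) with HFD 23 and -0.02 without it.

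**Figure D3:**
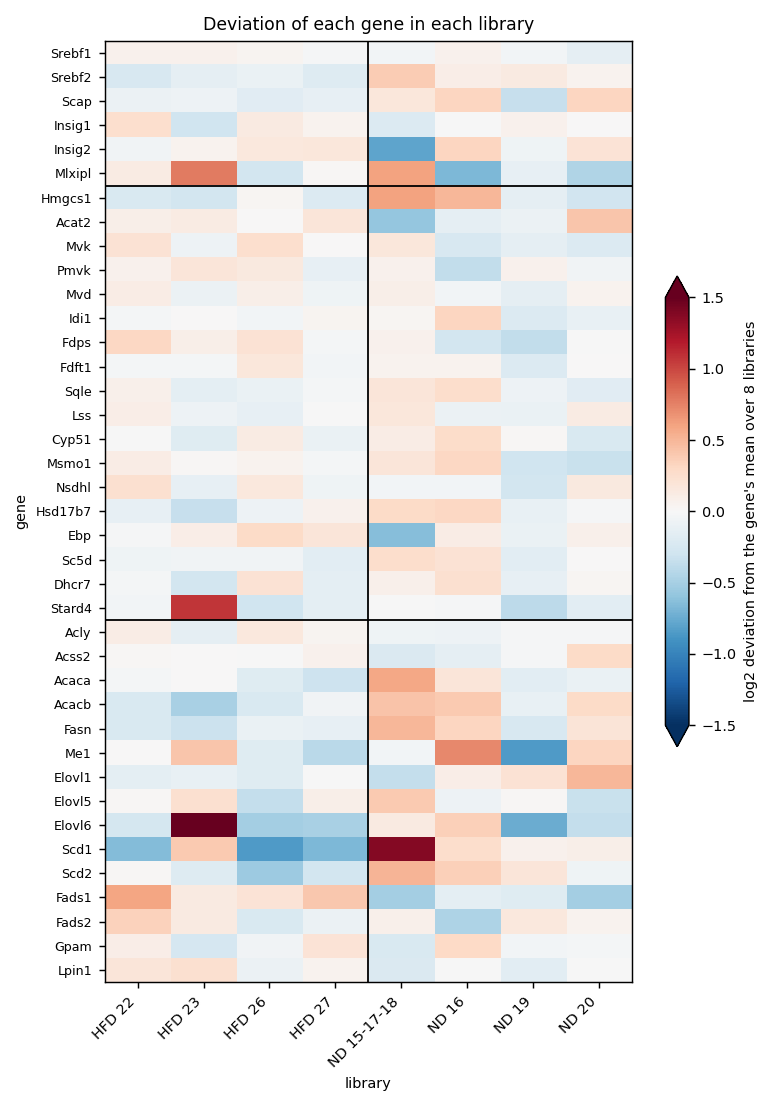
Deviation of each gene (rows, by role) from its own mean over the 8 libraries (columns), in log2 units; the colours saturate at 1.5. Stard4 and Elovl6 are high in HFD 23 alone, Scd1 is highest in ND 15-17-18, and the sterol genes from Hmgcs1 to Dhcr7 are mostly pale.

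In fatty acid synthesis, the supply of acetyl-CoA was read from 2 genes. Acly, which makes cytosolic acetyl-CoA from citrate, stood at 12.78, 12.53, 12.82 and 12.71 in HFD, against 12.60, 12.59, 12.65 and 12.65 in ND. The ND values lay inside those of HFD, and the difference was 0.09 with a 95% interval of -0.13 to 0.30. Acss2, which makes it from acetate, differed by 0.04 ± 0.12 (SE), and Me1, the malic enzyme that supplies NADPH, by -0.08 ± 0.32 (SE). Me1 ranged over 1.56 within ND alone, from 10.08 in ND 19 to 11.64 in ND 16.

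Acetyl-CoA carboxylase makes malonyl-CoA, for synthesis through Acaca and, through the mitochondrial form Acacb, as a brake on fatty acid oxidation. Acacb (chromosome 5, 114146321 to 114250761) stood at 12.47, 12.21, 12.48 and 12.65 in HFD 22, 23, 26 and 27, against 13.13, 13.10, 12.59 and 12.99 in ND 15-17-18, 16, 19 and 20. Only ND 19 fell within the HFD values. The difference was -0.50 ± 0.14 (SE; limma adjusted p = 0.29), and -0.42 to -0.62 with any 1 library left out. It was 0.36, the opposite sign, on the deposited values, and -0.25, past no threshold, on a common total without the 20 highest rows. Acaca stood at 9.45, 9.49, 9.30 and 9.17 in HFD, against 10.06, 9.66, 9.33 and 9.39 in ND. It overlapped, at -0.26 ± 0.17 (SE; limma adjusted p = 0.62).

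Fasn, the fatty acid synthase (chromosome 11, 120805958 to 120825166), stood at 14.13, 14.03, 14.25 and 14.24 in HFD 22, 23, 26 and 27, against 14.85, 14.68, 14.11 and 14.55 in ND 15-17-18, 16, 19 and 20. ND 19 lay among the HFD libraries and the other 3 ND libraries above them. The difference was -0.38 ± 0.15 (SE; limma adjusted p = 0.42). With 1 library left out, it passed the unadjusted threshold without HFD 26, HFD 27 or ND 19 and missed it without any of the other 5 libraries, over a range of -0.28 to -0.53. Fasn also missed the threshold after quantile normalization, on a common total without the 20 highest rows and without limma's options. It was 0.47 on the deposited values.

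The stearoyl-CoA desaturases, which make oleate, were both lower at the unadjusted threshold. Scd2 (chromosome 19, 44293676 to 44306864) stood at 11.18, 10.98, 10.62 and 10.89 in HFD, against 11.68, 11.52, 11.35 and 11.11 in ND 15-17-18, 16, 19 and 20. HFD 22 alone overlapped ND, by passing ND 20. The difference was -0.50 ± 0.16 (SE; limma adjusted p = 0.32) and passed the unadjusted threshold with any 1 library left out, at -0.40 to -0.60. On the deposited values its sign was the opposite, at 0.36, and on a common total without the 20 highest rows it was -0.25 and missed the threshold. Scd1 (chromosome 19, 44394450 to 44407709) stood at 6.79, 7.83, 6.59 and 6.76 in HFD 22, 23, 26 and 27, against 8.81, 7.71, 7.50 and 7.52 in ND. HFD 23 was high among HFD, and ND 15-17-18 among ND. The difference was -0.89 ± 0.37 (SE; limma adjusted p = 0.44), or -0.59 without ND 15-17-18 and -1.17 without HFD 23. It missed the unadjusted threshold without HFD 22, HFD 26, HFD 27, ND 15-17-18 or ND 16, 5 of the 8 libraries. Scd1 also missed it without limma's options, on the deposited values and on a common total without the 20 highest rows. Scd genes lie together on chromosome 19 and are similar, so reads could be shared. Their neighbour Scd3 ranged over 3.41 to 9.72 in HFD and 6.14 to 12.47 in ND.

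Fads1, the desaturase that forms arachidonate from its precursor (chromosome 19, 10182877 to 10196874), was the member with the smallest p. It stood at 8.79, 8.33, 8.40 and 8.61 in HFD 22, 23, 26 and 27, against 7.69, 8.06, 8.02 and 7.69 in ND 15-17-18, 16, 19 and 20. All HFD libraries lay above all ND libraries. The means were 8.53 ± 0.21 in HFD and 7.87 ± 0.20 in ND (SD, n = 4 each), and the difference was 0.67 ± 0.17 (SE; limma adjusted p = 0.25). Its sign was the same in each of the 15 alternative settings, with an unadjusted p under 0.05 in every one of them. Fads2, the neighbouring gene for the desaturase that acts earlier in the same chain, differed by 0.08 ± 0.18 (SE), with overlapping groups; whether the 2 genes differed in response was not tested.

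Among the elongases, Elovl6, which lengthens palmitate, was set by 1 library, as Stard4 was. It stood at 9.05, 11.17, 8.81 and 8.82 in HFD 22, 23, 26 and 27, against 9.45, 9.67, 8.57 and 8.95 in ND. HFD 23 lay above all 7 other libraries, and the difference of 0.30 ± 0.54 (SE) became -0.27 without it. Elovl3 of the same family was at 7.30 in HFD 23, against 2.67 to 3.24 in the other HFD libraries and 0 to 3.46 in ND. Elovl1 differed by -0.23 ± 0.17 and Elovl5 by 0.00 ± 0.23 (SE). Gpam, which starts glycerolipid assembly, stood at 10.90, 10.56, 10.76 and 11.01 in HFD, against 10.58, 11.11, 10.77 and 10.78 in ND, and its difference was 0.00 with a 95% interval of -0.32 to 0.32. Lpin1, a phosphatidate phosphatase, stood at 8.56, 8.61, 8.29 and 8.43 in HFD, against 8.16, 8.37, 8.22 and 8.37 in ND. It overlapped, at 0.19 ± 0.14 (SE).

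Per kilobase of the longest GENCODE transcript, Fasn was the most abundant of the 39, at 10.83 in HFD and 11.24 in ND (log2 of the mean scaled value per kilobase). Srebf2 followed, at 10.79 in HFD and 11.13 in ND, and then Hmgcs1, at 10.64 in HFD and 11.03 in ND. The steps between these 3 in ND were smaller than the SD over ND libraries of Fasn (0.31) and of Hmgcs1 (0.45). Their order is not resolved in ND. In HFD, the step from Fasn to Srebf2 was smaller than the SD of Fasn over HFD libraries (0.10). Acly came next, at 10.57 in HFD, a step from Hmgcs1 smaller than the SD of Hmgcs1 over HFD libraries (0.13). The order within each of these pairs is not resolved in HFD either. At the other end were Scd1, at 4.80 in HFD and 5.72 in ND, and Mlxipl, at 4.75 in HFD and 4.45 in ND. Scd2 was the more abundant of the 2 desaturase members, at 8.48 in HFD and 8.98 in ND. Of the carboxylases, Acacb stood at 9.32 in HFD and 9.83 in ND, and Acaca at 6.11 in HFD and 6.39 in ND. Which exons the authors counted is not given in the sources used here, so these levels rest on an assumed length.

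**Figure D4:**
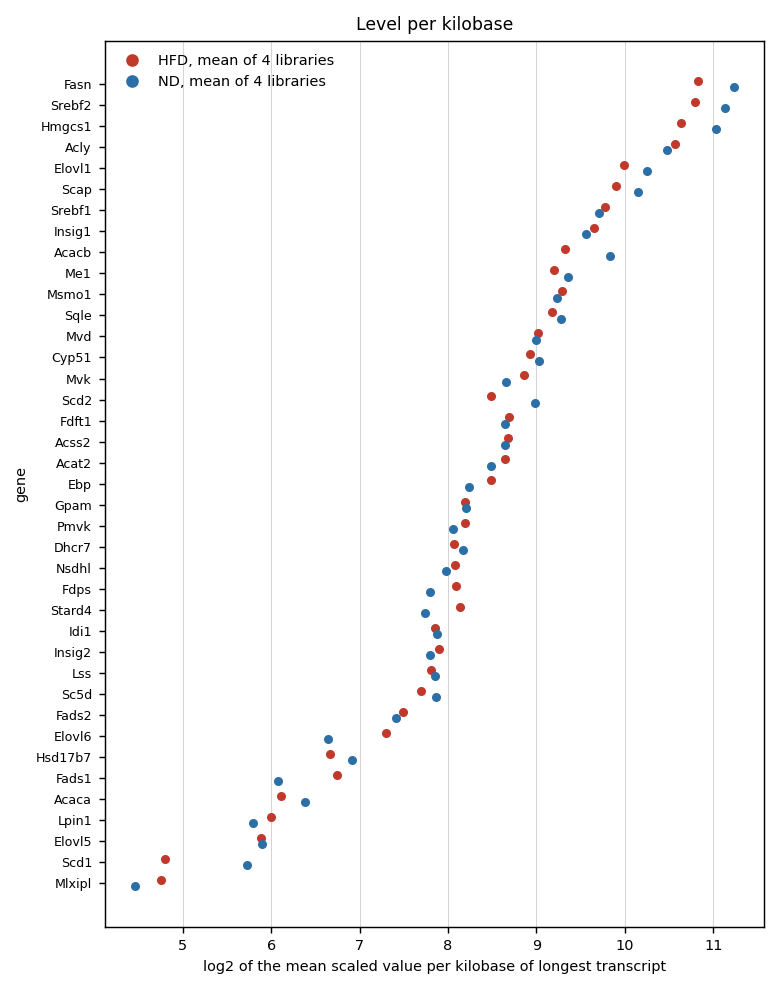
Level per kilobase of longest transcript (horizontal axis, log2 of the mean scaled value over 4 libraries) for the 39 genes, ordered from the highest mean; HFD in red, ND in blue. Fasn, Srebf2 and Hmgcs1 lead, at 10.64 or more in HFD, and Scd1 and Mlxipl close the order, at 4.80 and 4.75 in HFD.

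The difference between the groups varied with transcript length among the tested rows. Among tested rows with a mean level above 7, the median difference was 0.20 in the shortest of 5 equal bins of transcript length and -0.13 in the longest. In the longest bin ND 15-17-18 deviated by 0.25 and ND 16 by 0.09, and HFD 26 by -0.18. There ND 19 and ND 20, at -0.01 and -0.05, lay close to HFD 22, 23 and 27, at -0.06, -0.05 and -0.06. The 5 members lower at the unadjusted threshold have transcripts of 4832 (Scd1) to 10050 bases (Fasn), limits that these members themselves set. Lss, Gpam, Acaca, Lpin1, Stard4 and Elovl6 also lie within these limits and did not pass the threshold. Their differences were -0.05, -0.0015, -0.26, 0.19, 0.29 and 0.30. Each library was therefore centred by the median deviation of rows of the same length bin and GC bin, a setting added after the data were seen. The differences of Srebf2, Fasn and Acacb then became -0.17, -0.22 and -0.33 and missed the unadjusted threshold. Scd1, Scd2 and Fads1 stood at -0.82, -0.39 and 0.62 and passed it, and Elovl1, at -0.44, joined the lower members. The part of transcript length in these differences was not tested beyond this.

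**Figure D5:**
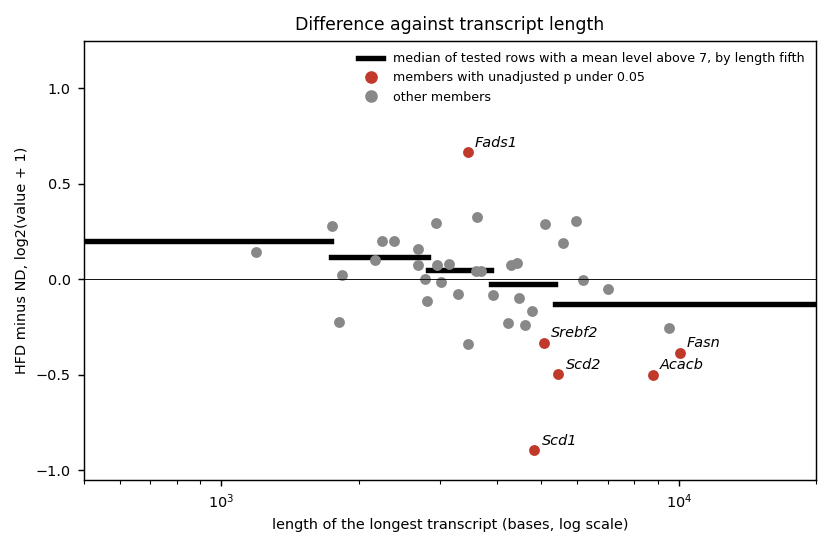
Difference between HFD and ND (vertical axis, log2(value + 1)) against the length of the longest transcript (horizontal axis, bases, log scale) for the 39 genes. Black bars are medians of all tested rows with a mean level above 7 in 5 bins of length, going from 0.20 to -0.13; the outer bars run on past the axis. Srebf2, Scd1, Scd2, Acacb and Fasn have transcripts of 4832 bases, the length of Scd1, or more and lie below the bars. Lss, Gpam, Acaca, Lpin1, Stard4 and Elovl6 also have 4832 bases or more and did not pass the unadjusted threshold.

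Other genes of these pathways, from lists of related functions, gave 0 calls at a limma adjusted p under 0.05, where 0.0109% of all tested rows were called. These lists are set beside all tested rows, where the median was 0.12 and 6.43% were higher and 4.09% lower at an unadjusted p under 0.05, and counts of 1 or 2 in such short lists are read as values only. Of 14 genes of SREBP processing and nuclear receptors, with a median difference of 0.00, 0 were higher and 2 lower at an unadjusted p under 0.05. Ppargc1b, a coactivator that SREBP-1 uses in liver, averaged 10.11 ± 0.08 in HFD and 10.67 ± 0.29 in ND (SD, n = 4 each), a difference of -0.57. Mid1ip1, which promotes the polymerisation of acetyl-CoA carboxylase, averaged 11.55 ± 0.09 in HFD and 11.86 ± 0.12 in ND, a difference of -0.31. Both were lower in every HFD library than in any ND library, where 3.12% of all tested rows were. Both kept an unadjusted p under 0.05 after the length and GC centring, and on the deposited values both were positive, at 0.29 for Ppargc1b and 0.55 for Mid1ip1. Mbtps1, the protease that makes the first cut in SREBPs, was higher in every HFD library than in any ND library, where 4.72% of rows were, at a difference of 0.17 that missed the unadjusted threshold. Of 6 AMPK subunits, which form the kinase that switches carboxylase off, the median was -0.11, and 0 were higher and 1 lower, Prkag2 at -0.39. Prkag2 was also lower in every HFD library than in any ND library. Prkag1 and Prkab1 were at 0.33 and -0.13.

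Of 14 genes of cholesterol efflux, storage and transport, with a median of 0.02, 0 were higher and 2 lower. Osbp, the oxysterol-binding protein, averaged 11.34 ± 0.13 in HFD and 11.78 ± 0.10 in ND (SD, n = 4 each), a difference of -0.44 ± 0.10 (SE; limma adjusted p = 0.22), with no overlap, and 0.42 on the deposited values. Lrp1, an endocytic lipoprotein receptor with a long transcript, was at -0.79, and Abcg1, a sterol exporter, at 0.58. Lrp1, like Osbp, was lower in every HFD library than in any ND library, where 3.12% of all tested rows were. Of 9 further genes of sterol and isoprenoid synthesis, with a median of -0.01, 1 was higher and 1 lower, and these are a pair of enzymes for the same step. Lbr, the lamin B receptor, which also reduces sterols, averaged 11.57 ± 0.15 in HFD and 11.17 ± 0.09 in ND. Tm7sf2, the other sterol reductase of that step, averaged 7.75 ± 0.20 in HFD and 8.27 ± 0.20 in ND (SD, n = 4 each). The differences were 0.40 for Lbr and -0.52 for Tm7sf2, without overlap in either, and limma adjusted p was 0.26 and 0.35. Of all tested rows, 4.72% lay wholly above and 3.12% wholly below. Ggps1 of the same list, at -0.16, also lay wholly below. On the deposited values Tm7sf2 was positive, at 0.33. Pdss2, of coenzyme Q synthesis, was at 0.20.

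Of 22 further genes of fatty acid synthesis and activation, with a median of -0.06, 0 passed the unadjusted threshold in either direction. The acyl-CoA synthetases Acsl3 and Acsl1 were at -0.33 and 0.26, and Fads3 at -0.27. Acsl3 was lower in every HFD library than in any ND library, where 3.12% of all tested rows were. Neither did any of 8 genes of NADPH supply, with a median of 0.04, where Pgls, Tkt and Pgd of the pentose phosphate pathway were at 0.44, 0.23 and -0.19, nor any of the 5 tested of 6 genes of mitochondrial fatty acid synthesis, with a median of 0.18, where Mcat, Ndufab1 and Cbr4 were at 0.32, 0.37 and 0.18.

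The libraries carried gastric epithelial RNA, and genes of several marker lists differed between groups at the unadjusted threshold. Over all tested rows, 6.43% were higher and 4.09% lower at that threshold. Markers of chief, parietal and pit cells were abundant in all 8. Of 5 chief cell markers 4 were higher at an unadjusted p under 0.05, with a summed level of 21.2 to 21.6 in HFD and 20.2 to 21.3 in ND (log2). That sum was mostly Pgc, which averaged 21.43 in HFD and 20.76 in ND. Of 4 pit cell markers 1 was lower, the mucin Muc5ac at -1.61, with a summed level of 18.9 to 19.7 in HFD and 19 to 20.1 in ND. All 5 smooth muscle markers were higher, with sums of 11.3 to 12 in HFD and 8.34 to 10.7 in ND, and 2 of 4 squamous markers were, with sums of 11.2 to 12.5 in HFD and 6.64 to 11.4 in ND. Of 7 markers of adipocytes, which store lipid, 0 of the 6 tested were higher or lower, sums were 7.79 to 8.31 in HFD and 7.41 to 8.48 in ND, and Adipoq, Lep, Cfd and Retn were listed at 0 in at least 1 library. Of 5 pancreatic acinar markers 2 were higher, Clps at 1.30 and Try4 at 1.11, and the median of the 5 was -0.20. Cel, Cela2a and Cpa1 were at -0.42, -0.20 and -0.29. Sums were 17 to 17.7 in HFD and 15.7 to 16.9 in ND. They were mostly Clps, which averaged 17.39 in HFD and 16.09 in ND. Of 6 leukocyte markers 1 was higher. Among 5 parietal markers 1 was lower, Slc26a7 at -0.58. Among 4 general epithelial markers 1 was higher, Epcam at 0.68, and 1 lower, Cdh1 at -0.43. Among 3 hepatocyte markers 1 was higher, Ttr at 0.59, and among 2 neck and 3 endothelial markers 0 passed. None of these marker genes was called after adjustment. The part of cell makeup in the differences of the lipid genes was not tested.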

How the data were processed

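The authors' deposited values were taken as log2 values because their antilogs, with 0 read as 0, sum to 36.9 M in every library; per the file headers they are normalized. Per the submitters' processing notes, genome build mm10 and bedtools 2.17.0 were used; their role, the aligner, the annotation and how values were normalized are not stated in the sources used here. Of 38920 rows per table, 32891 matched a symbol in the RefSeq gene table of GRCm38.p6. Depth is not stated. When the most frequent low value was tried as 2 reads, 28.0% to 38.6% of values below 2000 such steps were whole within 0.01, so no count model was fitted.

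The antilogs were divided by median-ratio factors over the 11115 rows above 30 in all 8 libraries. The 27401 rows that reached 1 in 4 or more libraries entered the fit. HFD was compared with ND on log2(value + 1) in limma 3.58.1 under R 4.3.3, using its trend and robust options, with Benjamini-Hochberg adjustment over all rows and a threshold of 0.05. A pseudocount understates changes of low genes. The procedure was tested on simulated data with planted changes larger than the difference of any member. That test does not cover differences of the size seen here. The members, the lists, the scaling and the rule for named genes were chosen with earlier results of these data known. Values in every library are given for members with an unadjusted p under 0.05 or no overlap and for key members listed by name, and the 3 smallest p of each related list are named. Groups come from the titles; no batch is labelled. The header of HFD 23 alone holds a date. Longest transcripts are those of GENCODE M21, which hold 83.1% of the tested rows by symbol. Intervals are limma's.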

Additional observations from a re-analysis of the deposited data

Results flagged for a closer look

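Of 78 groups of 4 libraries (39 genes in HFD and in ND), 6 had 1 library whose gap to its nearest neighbour exceeded Dixon's critical value as a share of the group's range; chance alone gives about 1 in 20. In HFD 23, Elovl6 stood at 11.17, against 8.81 to 9.05 in the other HFD libraries, and Scd1 at 7.83, against 6.58 to 6.79. In ND 15-17-18, Scd1 stood at 8.81, against 7.50 to 7.71 in the other ND libraries. Fdft1 was at 10.73 in HFD 26, against 10.52 to 10.53, and Sc5d at 9.88 in HFD 27, against 9.97 to 9.98, gaps that are small in size. Fads2 was at 8.63 in ND 16, against 9.15 to 9.25.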

How the results depend on the processing

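The count of members called stayed at 0 in all 15 alternatives. The count higher at the unadjusted threshold was 3 with a common total computed without the 20 highest rows and otherwise 1, or 1 to 3 with a library left out (3 without ND 15-17-18, with Mvk and Fdps, and 2 without ND 20, with Acat2). The count lower was 0 as deposited and without the 20 highest rows, 3 after quantile normalization, without limma's options and after length and GC centring, and 3 to 6 with a library left out (3 without HFD 22 or ND 16, 6 without ND 19). The members' median was 0.88 as deposited, 0.27 without the 20 highest rows and -0.10 after centring, where the median of all rows was 0.90, 0.35 and 0.02. As deposited, 17 signs turned: Srebf2 0.53, Scap 0.63, Hmgcs1 0.52, Idi1 0.84, Sqle 0.76, Lss 0.81, Cyp51 0.77, Hsd17b7 0.62, Sc5d 0.69, Dhcr7 0.74, Acaca 0.60, Acacb 0.36, Fasn 0.47, Me1 0.78, Elovl1 0.63, Scd2 0.36 and Gpam 0.86. Without the 20 highest rows 11 turned: Scap 0.0205, Idi1 0.23, Sqle 0.15, Lss 0.20, Cyp51 0.16, Hsd17b7 0.0086, Sc5d 0.0839, Dhcr7 0.14, Me1 0.17, Elovl1 0.0229 and Gpam 0.25. Quantile normalization turned Elovl5 (-0.15) and Gpam (0.0264). Centring turned Insig1 (-0.0608), Pmvk (-0.14), Mvd (-0.15), Fdft1 (-0.0017), Lss (0.0574), Msmo1 (-0.0760), Nsdhl (-0.10), Elovl5 (-0.15), Fads2 (-0.0451) and Gpam (0.11). With 1 library left out the difference ran from -0.0751 to 0.30 for Insig2, -0.0207 to 0.0536 for Mvd, -0.0868 to 0.0890 for Idi1, -0.0178 to 0.0710 for Fdft1, -0.0281 to 0.19 for Msmo1, -0.0179 to 0.44 for Stard4, -0.0224 to 0.14 for Acss2, -0.38 to 0.15 for Me1, -0.11 to 0.13 for Elovl5, -0.27 to 0.52 for Elovl6, -0.0570 to 0.17 for Fads2 and -0.0773 to 0.10 for Gpam. The deposited and common-total settings shift all genes of a library by 1 factor; for the other settings the cause was not tested. No paired analysis was possible because the groups share no replicate number.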

Other observations

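The HFD libraries were closer to each other than the ND libraries for 30 of the 39 members, or 76.9%, by the SD over 4 libraries, where 69.3% of all tested rows had the smaller SD in HFD. Of the 39 members, ND 15-17-18 and ND 16 were each the highest library for 10, ND 19 was the lowest for 10, and HFD 27 and ND 19 were the highest for 0.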
